A study of Mus musculus with 10 samples.

Results

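Transcripts of 7 secreted BMP antagonists, *Nog*, *Chrd*, *Chrdl1*, *Twsg1*, *Bmper*, *Grem1* and *Sostdc1*, were followed in bulk RNA-seq of the anterior fontanelle (AF) of mouse embryos at embryonic day E18.5. They were taken by gene symbol from a table of 23080 genes, and all 7 had a row and passed the filter on low counts that left 16267 genes to be tested. The set was proposed with results of the comparison between genotypes in view, with *Noggin* (*Nog*) as its lead gene, so differences between genotypes are given below for these 7 genes as descriptions, with no p for any of them; how many passed each threshold is stated once, and nothing is read from it. The study used 10 libraries, 5 from control embryos labelled WT and 5 from embryos labelled Wnt1-Cre; Fgfr2fl/fl, in which Cre recombinase expressed in the neural crest lineage recombines a floxed *Fgfr2* allele. The excised tissue held the connective tissue of the fontanelle and the edges of the frontal bones, without skin and brain. Every library is therefore a mixture of cell types, and the frontal bones and AF tissue are derived from neural crest whereas endothelium, blood cells and osteoclasts in the same piece are not and keep *Fgfr2*. In such bulk samples, fewer cells of a type and less RNA per cell cannot be told apart.

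BMPs are secreted ligands that assemble type I and type II receptors and lead to phosphorylation of SMAD1, SMAD5 and SMAD9, which promotes osteoblast and chondrocyte differentiation. Secreted antagonists bind the ligands outside the cell and keep them from their receptors. Noggin is known for its role in sutures, where it is present in patent cranial sutures and where FGF signaling was shown to lower its expression.

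Promoter sequence from RefSeq (assembly GRCm38.p6) was matched by symbol for 4 of the 7 genes, *Grem1*, *Chrd*, *Bmper* and *Twsg1*. The 250 bases before the annotated start are shown for *Chrd* and *Bmper*, the pair with the highest correlation among embryos of a group (adjusted exact permutation p = 0.21) and with log2 fold changes of opposite sign and overlapping groups, and for *Grem1*, the most variable antagonist. Capitals mark GGCGCC, the GC-rich element to which SMAD proteins of the BMP branch can bind. The windows are chr16:20732877-20733126 on the plus strand (*Chrd*), chr9:23222826-23223075 on the plus strand (*Bmper*) and chr2:113758649-113758898 on the minus strand (*Grem1*), each written 5′ to 3′ along its gene.
Chrd: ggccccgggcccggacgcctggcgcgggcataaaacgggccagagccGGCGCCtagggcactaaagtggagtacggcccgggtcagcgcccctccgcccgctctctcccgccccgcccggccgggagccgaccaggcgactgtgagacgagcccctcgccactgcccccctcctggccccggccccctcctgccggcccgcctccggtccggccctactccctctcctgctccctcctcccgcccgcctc
Bmper: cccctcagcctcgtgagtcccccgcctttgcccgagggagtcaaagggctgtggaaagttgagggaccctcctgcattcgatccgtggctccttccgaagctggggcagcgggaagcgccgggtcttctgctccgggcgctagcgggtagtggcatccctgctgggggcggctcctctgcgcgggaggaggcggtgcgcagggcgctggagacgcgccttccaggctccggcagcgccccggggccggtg
Grem1: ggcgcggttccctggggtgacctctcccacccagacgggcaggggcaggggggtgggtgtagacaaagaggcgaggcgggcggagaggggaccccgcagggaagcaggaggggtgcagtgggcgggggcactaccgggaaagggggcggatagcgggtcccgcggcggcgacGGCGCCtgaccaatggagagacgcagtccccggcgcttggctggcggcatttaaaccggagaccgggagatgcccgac
These windows were rich in G and C, at 78.0% in *Chrd*, 71.6% in *Bmper* and 72.0% in *Grem1*. *Chrd* and *Grem1* each held 1 copy of GGCGCC and *Bmper* held 0. Searched on both strands, GGCGCC was found in 9.59% of all 32851 promoter windows of this length, the palindromic SMAD element GTCTAGAC in 0.167% and the TATA box letters TATAAA in 12.4%. Neither GTCTAGAC nor TATAAA was found in any of the 4 windows. These matches describe the letters of the windows only.

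Library totals ranged from 20774645 to 28515403 counts, of which ribosomal RNA genes held 18.7% to 33.6%. *Fgfr2*, the targeted gene, was higher in the mutant-labelled libraries, with 318 ± 32.8 CPM (counts scaled to library size and TMM factors) against 199.5 ± 21.7 in the controls and a log2 difference of 0.67 (SE 0.090), and no mutant-labelled library was as low as a control. The count sums all exons of the locus and does not separate recombined from intact transcripts, and the annotated *Fgfr2* exons share bases with *Ctbp2* on the same strand, so the *Fgfr2* value is uncertain and genotypes below are those of the labels. Over all 16267 genes, edgeR called 3 at an adjusted p under 0.05 and 1219 at an unadjusted p under 0.05. Libraries differed in admixed tissue. Summed skeletal muscle markers reached 671 CPM in control replicate 2 and 664 CPM in mutant replicate 1, against 15.3 to 127 CPM in the others, and summed neuron and glia markers reached 498 CPM in mutant replicate 2, against 71.9 to 207 CPM in the others. Summed epidermis markers stayed between 5.27 and 10.3 CPM, with *Krt14*, *Trp63* and *Shh* below the filter.

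*Nog*, which binds BMP ligands with high affinity and masks both of their receptor-binding surfaces, was lower in every mutant-labelled library than in every control. Its level in the controls was 22.4, 19.8, 21.3, 20.97 and 20.8 CPM, and in the mutants 16.1, 15.7, 17.2, 17.4 and 15.9 CPM. The groups were thus separated by the gap between 17.4 and 19.8 CPM. The mean was 21.1 ± 0.909 CPM in controls against 16.4 ± 0.773 CPM in mutants (SD, n = 5 each) and the log2 fold change was -0.36 (SE 0.056). *Nog* varied little among embryos of a group, with a coefficient of variation of 4.32% in controls and 4.70% in mutants, close to the 4.66% that counting error alone gives at its mean count. Between 347 and 603 counts per library lay behind these values. Across all genes, 0.701% were lower in every mutant library than in every control, and *Nog* was the 1 of the 7 antagonists in which the groups did not overlap; nothing is read from that count, since the set was chosen on this contrast. *Nog* is annotated at chr11:89300638-89302332 on the minus strand (GRCm38) as a single exon of 1695 bases, so all of its reads fall in 1 exon that holds the coding sequence and the UTRs.

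**Figure D1:**
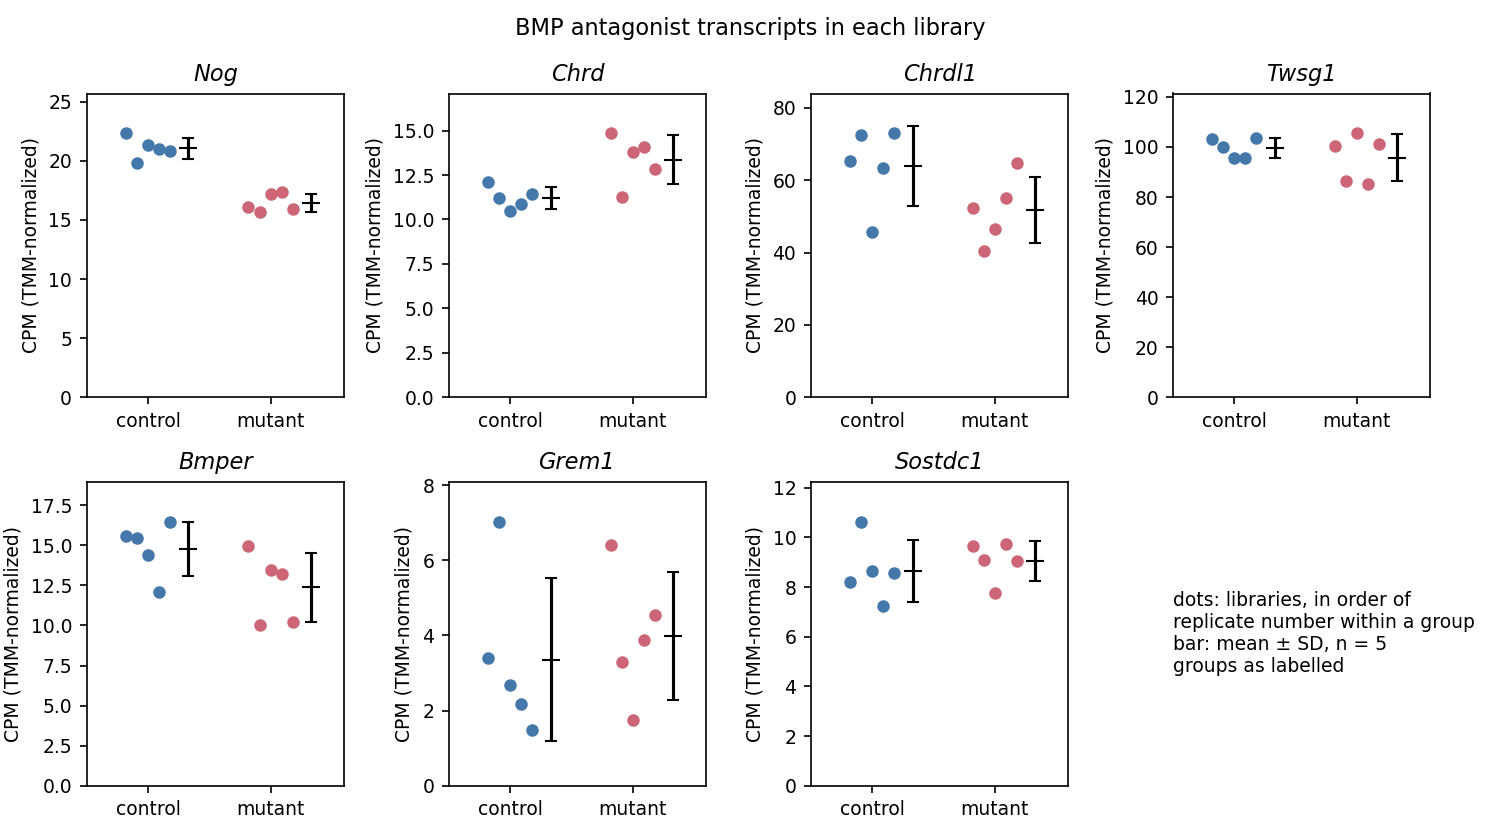
Level of each BMP antagonist in each library, in TMM-normalised CPM on axes that start at 0, with control-labelled libraries in blue, mutant-labelled libraries in red, and bars at the mean ± SD (n = 5). The *Nog* dots of the groups do not overlap (19.8 to 22.4 against 15.7 to 17.4 CPM), whereas the dots of the other 6 antagonists do.

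Bone markers were compared alongside *Nog*. All 14 osteoblast markers, from the transcription factors *Runx2* and *Sp7* to the osteocyte genes *Dmp1* and *Mepe*, had log2 fold changes below 0 in the mutants and their median was -0.29, and 8 of the 14 had an unadjusted p under 0.05, against 7.49% of all genes; none passed an adjusted p under 0.05 by edgeR, and 3, *Alpl*, *Dmp1* and *Ibsp*, did so by DESeq2. Their score, the mean log2 CPM of the 14 genes, was 9.15 ± 0.11 in controls (8.99 to 9.30) and 8.84 ± 0.12 in mutants (8.71 to 8.99). The summed CPM of the list, most of it *Col1a1* and *Col1a2*, was 112212 in controls and 107554 in mutants, and mutant replicates 3 and 5 lay above every control. Among embryos of the same group, *Nog* and the osteoblast score gave a Pearson r of 0.32 (exact permutation p = 0.372, two-sided, n = 10 deviations from group means), at a spread of *Nog* that is about that of counting error. Of 8 tendon and fontanelle connective tissue markers, 4 were higher and 1 lower in the mutants at an unadjusted p under 0.05, and *Tnmd* (log2 fold change 0.58) and *Matn4* (0.64) were higher in every mutant library than in every control, as were 0.781% of all genes. The summed level of this list was 1825 CPM in controls and 1708 CPM in mutants, and the groups overlapped. Most of that sum was *Tnc*, the 1 marker lower at the unadjusted threshold, which went from a mean of 1399 to 1178 CPM. The sum therefore mainly follows *Tnc*, whereas log2 fold changes were above 0 for 5 of the 8 markers and below 0 for 3. Of 7 tested chondrocyte markers, 1, *Col2a1* (log2 fold change 0.88), had an unadjusted p under 0.05 and did not overlap, while *Sox9* and *Hapln1* were at -0.013 and -0.022. The summed level of that list was 285 to 367 CPM in the controls and 375 to 425 CPM in the mutants, and *Col2a1* alone went from a mean of 56.2 to 103 CPM. Log2 fold changes were also above 0 for 9 of 9 neuron and glia markers (median 0.80, 1 at an unadjusted p under 0.05). The sum of that list was 498 CPM in mutant replicate 2, 87.8 to 207 CPM in the other mutants and 71.9 to 145 CPM in the controls. Of the ectocranial mesenchyme and hypodermis markers, 5 of 6 were above 0 (median 0.36, 2 at an unadjusted p under 0.05). Of the osteoclast markers, 5 of 6 were below 0 (median -0.15, 1 at an unadjusted p under 0.05). The part of these marker lists in the *Nog* difference was not tested.

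**Figure D2:**
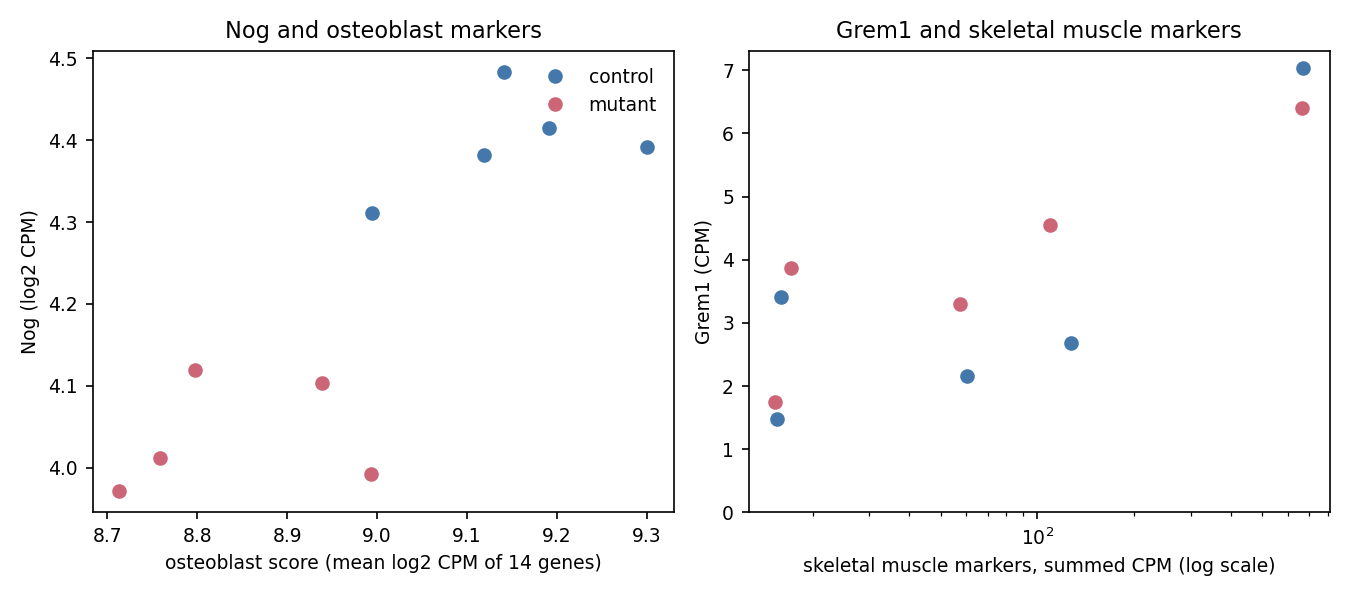
Left, *Nog* (log2 CPM) against the osteoblast score (mean log2 CPM of 14 genes); right, *Grem1* (CPM) against summed skeletal muscle markers (CPM, log scale), with one dot per library, controls in blue and mutants in red. On the left the controls sit higher on both axes, and on the right the libraries with 671 and 664 CPM of muscle markers hold the highest *Grem1* values, 7.03 and 6.41 CPM.

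In the chordin group, log2 fold changes were above 0 for *Chrd* and below 0 for *Chrdl1*, *Bmper* and *Twsg1*, and the groups overlapped in all 4. *Chrd* encodes Chordin, which binds BMPs through cysteine-rich repeats and releases them when tolloid proteases cut it. It was at 12.1, 11.2, 10.5, 10.9 and 11.5 CPM in the controls and at 14.9, 11.3, 13.8, 14.1 and 12.8 CPM in the mutants. Mutant replicate 2, at 11.3 CPM, lay within the control range and the other 4 mutants lay above it. The mean was 11.2 ± 0.612 CPM in controls against 13.4 ± 1.37 CPM in mutants and the log2 fold change was 0.25 (SE 0.083). *Chrd* (chr16:20733127-20742384, plus strand) shares exonic bases with *Thpo* on the opposite strand, and whether the counting used strand is not given in the sources used here, so reads in the shared bases are uncertain.

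*Chrdl1*, which encodes a chordin-like antagonist that binds BMP4, was among the more abundant antagonists and was variable in both groups. The controls were at 65.3, 72.5, 45.7, 63.3 and 73.0 CPM and the mutants at 52.2, 40.5, 46.5, 55.0 and 64.9 CPM. Control replicate 3 was lower than 4 of the 5 mutants and mutant replicate 5 was higher than 2 of the 5 controls, so the groups overlapped. Means were 64.0 ± 11.1 and 51.8 ± 9.19 CPM, or in log2 fold change -0.30 (SE 0.14), with a coefficient of variation of 17.3% and 17.7% against 2.65% from counting error. *Chrdl1* is X-linked (chrX:143285674-143394262, minus strand). *Xist* was at 0.77 to 3.55 CPM in control replicates 1 and 3 and mutant replicates 2 and 3, and at 366 to 563 CPM in the others. Of those low in *Xist*, control replicate 3 and mutant replicates 2 and 3 were the lowest libraries in *Chrdl1*, whereas control replicate 1 was at 65.3 CPM. With the *Xist* level as a covariate the log2 fold change of *Chrdl1* was -0.34 (SE 0.10).

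*Bmper* encodes a chordin-like, cysteine-rich protein that can either restrain or assist BMP signaling depending on its level. It was at 15.6, 15.5, 14.4, 12.1 and 16.5 CPM in the controls and at 14.95, 10.1, 13.4, 13.2 and 10.2 CPM in the mutants. Mutant replicates 2 and 5 lay below every control, whereas the other 3 mutants lay within the control range. Means were 14.8 ± 1.68 and 12.4 ± 2.15 CPM and the log2 fold change was -0.26 (SE 0.12). *Bmper* lies at chr9:23223076-23485200 on the plus strand.

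*Twsg1* encodes Twisted gastrulation, which forms a ternary complex with Chordin and BMP. It was the most abundant of the antagonists. The controls were at 103, 100.02, 95.4, 95.5 and 104 CPM and the mutants at 100.3, 86.4, 106, 85.2 and 101 CPM. Mutant replicates 2 and 4 were below all controls and mutant replicate 3 was above them. The mean was 99.6 ± 4.03 CPM in controls against 95.7 ± 9.29 CPM in mutants and the log2 fold change was -0.057 (SE 0.068), with -0.107 when scaled by library size only and -0.0096 without mutant replicate 4. *Twsg1* lies at chr17:65921972-65951226 on the minus strand.

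The cystine-knot proteins of the DAN family and its relatives were represented by *Grem1* and *Sostdc1*. *Grem1* encodes Gremlin 1, which binds BMP2, BMP4 and BMP7 and is known as a feedback antagonist in the limb bud. It was the lowest of the antagonists and the most variable, at 3.41, 7.03, 2.68, 2.17 and 1.48 CPM in the controls and at 6.41, 3.30, 1.75, 3.87 and 4.55 CPM in the mutants. The groups overlapped over most of their range. Means were 3.35 ± 2.17 and 3.98 ± 1.71 CPM, or in log2 fold change 0.24 (SE 0.41), and the coefficient of variation was 64.8% in controls and 42.9% in mutants against 10.5% from counting error at 35 to 205 counts per library. The libraries highest in *Grem1*, control replicate 2 and mutant replicate 1, were also the highest in skeletal muscle markers. Without both of them, a choice made after the data were seen, the log2 fold change was 0.47 (SE 0.32). It was 0.71 without control replicate 2 alone and 0.0078 without mutant replicate 1 alone, and 0.056 without control replicate 5, 0.11 without control replicate 4 and 0.43 without mutant replicate 3, so the size of the *Grem1* difference moved with several single libraries. *Grem1* lies at chr2:113746164-113758646 on the minus strand.

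*Sostdc1* encodes a secreted protein, also called Ectodin or Wise, that antagonises BMPs and binds the WNT co-receptors LRP4, LRP5 and LRP6. It was at 8.19, 10.6, 8.63, 7.23 and 8.58 CPM in the controls and at 9.66, 9.10, 7.75, 9.75 and 9.05 CPM in the mutants. All mutants lay within the control range. Means were 8.65 ± 1.24 and 9.06 ± 0.800 CPM and the log2 fold change was 0.065 (SE 0.11), with 0.0071 without control replicate 4 and 0.16 without control replicate 2. *Sostdc1* lies at chr12:36314139-36318452 on the plus strand.

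Of the 7 antagonists, 3 were higher and 4 lower by log2 fold change in the mutants, with a median of -0.057 against 0.00073 over all genes tested. By edgeR, 0 of the 7 passed an adjusted p under 0.05, against 0.0184% of all genes. At an unadjusted p under 0.05 the count was 2, *Nog* lower and *Chrd* higher, against 3.82% of genes lower and 3.68% higher. By DESeq2, 1 of the 7, *Nog*, passed an adjusted p under 0.05, against 0.564% of all genes with an adjusted p. These counts come from tests on the contrast on which the set was proposed.

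Levels were compared between antagonists per kilobase of annotated exon, a measure that the choice of genes did not use. *Twsg1* was highest at 19.0 ± 1.37 CPM per kb (SD over the 10 libraries), followed by *Nog* at 11.1 ± 1.51, *Chrdl1* at 8.57 ± 1.71, *Sostdc1* at 4.97 ± 0.565, *Bmper* at 2.81 ± 0.459, *Chrd* at 1.96 ± 0.242 and *Grem1* at 0.884 ± 0.451 CPM per kb. The short *Nog* transcript is thus raised from the third place it holds by CPM to the second place per length. Each neighbour in this order was set against the next within libraries, with both genotypes pooled. The order was taken from the same 10 libraries, so the p-values tell only how evenly it held across them. They do not cover error in the gene lengths. *Twsg1* exceeded *Nog* by 0.76 on the log2 scale, *Chrdl1* exceeded *Sostdc1* by 0.71, *Sostdc1* exceeded *Bmper* by 0.73, *Bmper* exceeded *Chrd* by 0.42 and *Chrd* exceeded *Grem1* by 0.89, each in 10 of 10 libraries (exact sign-flip permutation test, two-sided, p = 0.00195, the smallest that 10 libraries allow, adjusted p = 0.00234 over 6 pairs). *Nog* exceeded *Chrdl1* by 0.36 in 9 of 10 libraries (exact p = 0.00391, adjusted p = 0.00391). That pair was reversed when the longest annotated transcript was taken as the length, to -0.33, with *Chrdl1* at 14.1 and *Nog* at 11.1 CPM per kb (exact adjusted p = 0.0078), so its order depends on the gene model. In the mutants *Nog* was at 9.70 ± 0.456 CPM per kb and *Chrdl1* at 7.67 ± 1.36, and in the controls they were at 12.4 ± 0.536 and 9.47 ± 1.64.

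**Figure D3:**
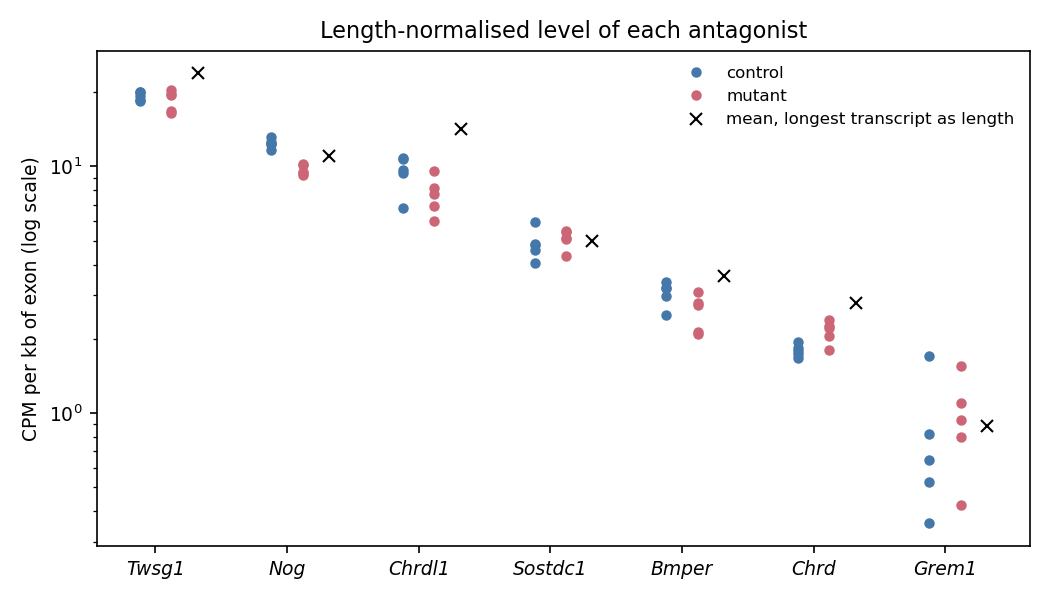
Level of each antagonist per kilobase of exon (CPM per kb, log axis), with one dot per library, controls in blue and mutants in red, and crosses at the mean over 10 libraries when the longest transcript is used as the length. From *Twsg1* at 19.0 to *Grem1* at 0.884 CPM per kb each gene lies above the next in at least 9 of 10 libraries, and the cross of *Chrdl1* (14.1) lies above that of *Nog* (11.1).

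The rest of the pathway was read from lists of 70 genes, of which 68 were in the table and 60 were tested. None passed an adjusted p under 0.05 by edgeR, and DESeq2 called 1, *Pcsk5*. At an unadjusted p under 0.05, the count was 11 of the 60 (18.3%, against 7.49% of all genes), 3 higher and 8 lower, with a median log2 fold change over the 60 of -0.027. This count depended on single libraries, with 4 genes without control replicate 4, 5 without control replicate 3 and 6 without mutant replicate 4. Its direction was not stable either, since 7 were higher and 5 lower by limma voom, 8 higher and 2 lower without mutant replicate 2, and 7 higher and 8 lower without control replicate 2. The groups did not overlap in 0 of the 60, against 1.48% of all genes. The 11 genes are named below although they were picked after their values were seen, and the 2 most abundant genes of each list are given beside them.

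Other secreted binders of BMP, GDF or activin ligands had a median of 0.054 in log2 fold change over 14 tested genes, 8 above and 6 below 0. *Wfikkn2*, an inhibitor of GDF8 and GDF11, was at 14.1 ± 1.99 CPM in controls against 18.53 ± 3.64 CPM in mutants. *Sost*, the osteocyte-derived WNT antagonist sclerostin, was at 72.3 ± 23.7 and 48.6 ± 8.86 CPM, or in log2 fold change -0.57 (SE 0.21), alongside the osteoblast and osteocyte markers above. *Fstl3*, which binds activins, and *Tsku*, a leucine-rich repeat protein that binds BMPs, had log2 fold changes of -0.24 and -0.14. The abundant *Fstl1* was at 989 ± 82.7 and 1089 ± 112 CPM and *Smoc2* at 109.9 ± 22.4 and 126 ± 16.8 CPM, and neither passed the unadjusted threshold.

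Among proteases and scaffolds that cleave Chordin or mature BMPs, 5 of 6 tested genes had log2 fold changes below 0 (median -0.13). The exception was *Pcsk5*, a proprotein convertase, at 58.0 ± 4.40 CPM in controls against 76.3 ± 10.4 CPM in mutants, or in log2 fold change 0.40 (SE 0.091, edgeR adjusted p = 0.307). *Bmp1*, the main Chordin-cleaving protease of this list, was at 234 ± 17.0 and 220.0 ± 10.2 CPM, and *Olfml3*, a scaffold for BMP1 and Chordin, at 258 ± 22.1 and 229 ± 23.4 CPM.

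The ligands had a median log2 fold change of -0.078 over 10 tested genes. *Bmp8a* differed at the unadjusted threshold, at 15.1 ± 2.94 CPM in controls against 11.8 ± 1.96 CPM in mutants. The abundant ligands *Bmp3* and *Bmp2* were at 82.5 ± 10.6 and 72.4 ± 8.28 CPM and at 34.0 ± 6.33 and 29.6 ± 4.89 CPM, so the differences of their means were smaller than the SD of the controls. *Bmp4*, named here as a ligand that the *Chrdl1* and *Grem1* products bind, had a log2 fold change of -0.19.

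Receptors and SMADs showed small differences. Over 10 receptors and co-receptors the median was 0.026, with *Rgma*, a membrane-anchored BMP co-receptor, at 26.4 ± 3.36 CPM in controls against 33.3 ± 2.31 CPM in mutants (log2 fold change 0.34, SE 0.087, edgeR adjusted p = 0.367). The type II receptor *Bmpr2* had a log2 fold change of 0.046 and the co-receptor *Eng* of -0.054. Over 6 SMADs and their ubiquitin ligases the median was 0.033, with *Smad9* at -0.27 (SE 0.12), *Smad5* at 0.057 and *Smurf2* at 0.029. Of the LRP receptors bound by Sostdc1, *Lrp4* was at 129 ± 10.2 and 114 ± 5.86 CPM, or in log2 fold change -0.18, while *Lrp5* and *Lrp6* were at 0.030 and 0.16.

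Genes known to be induced by BMP signaling lay slightly below 0, with a median of -0.055 in log2 fold change and 9 of 11 negative. *Bambi*, a pseudoreceptor that dampens BMP and TGFβ signaling, was at 46.7 ± 4.73 CPM in controls against 39.3 ± 5.22 CPM in mutants (log2 fold change -0.25, SE 0.096), and *Hey1* had a log2 fold change of -0.18 (SE 0.084). Both missed the adjusted threshold by edgeR (adjusted p = 0.631 and 0.659). *Id3* and *Id2*, direct targets of SMAD1 and SMAD5 and the most abundant of the list, were at 87.9 ± 9.66 and 85.4 ± 13.8 CPM and at 58.8 ± 3.47 and 56.6 ± 6.82 CPM. A difference in *Id* transcripts was not detected at this spread.

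**Figure D4:**
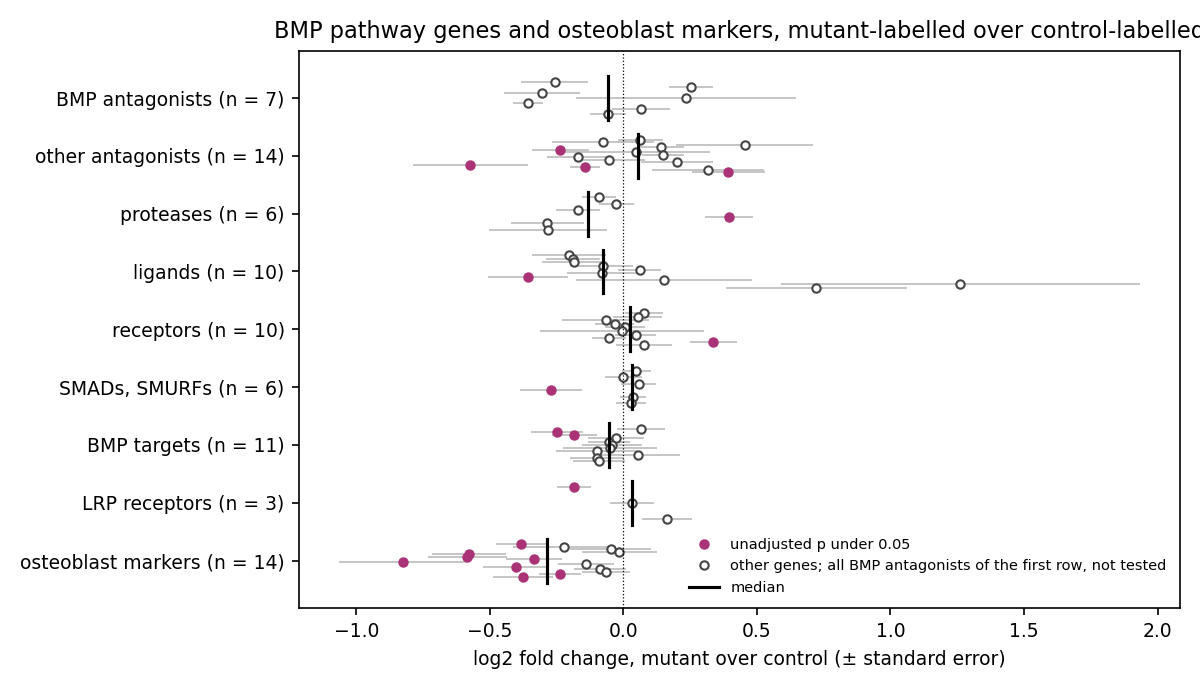
Log2 fold change of each tested gene, mutant-labelled over control-labelled, with its standard error, by gene list, where filled dots have an unadjusted p under 0.05 (not applied to the BMP antagonists of the first row) and black bars are list medians. Medians of the pathway lists lie between -0.13 and 0.054, and that of the osteoblast markers at -0.29.

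Variation among embryos of a group was examined apart from the genotype contrast, as deviations from the group mean over the 10 libraries. Each antagonist was set against scores of osteoblast, tendon, epidermis and endothelium markers. Of these 28 relations, 0 passed an adjusted p under 0.05 and 4 had an unadjusted exact permutation p under 0.05, which were those below. *Grem1* varied with the tendon score (r = 0.81, exact p = 0.0131, adjusted p = 0.201; rho = 0.78, exact p = 0.0142), but r was 0.52 without the 2 libraries farthest from the median score. *Sostdc1* varied inversely with the osteoblast score (r = -0.76, exact p = 0.0199, adjusted p = 0.201; rho = -0.77, exact p = 0.0144), with r of -0.75 without the 2 farthest libraries. *Nog* and the endothelium score had a positive correlation (r = 0.77, exact p = 0.0215, adjusted p = 0.201; rho = 0.77, exact p = 0.0206; r = 0.64 without the 2 farthest). *Sostdc1* varied inversely with the endothelium score (r = -0.69, exact p = 0.0428, adjusted p = 0.300; rho = -0.58, exact p = 0.0955; r = -0.66 without the 2 farthest). With the scores of 9 other marker lists, 63 further relations were computed, of which 0 passed an adjusted p under 0.05 and 3 had an unadjusted exact permutation p under 0.05. These were *Grem1* with meninges (r = -0.76, exact p = 0.0103, adjusted p = 0.593; rho = -0.66, exact p = 0.0528) and with skeletal muscle (r = 0.77, exact p = 0.0188, adjusted p = 0.593; rho = 0.60, exact p = 0.0925), with r of -0.40 and 0.39 without the 2 farthest libraries. The remaining one was *Nog* with skeletal muscle (r = -0.70, exact p = 0.0376, adjusted p = 0.718; rho = -0.61, exact p = 0.0838; r = -0.64 without the 2 farthest). For both *Nog* relations, the spread of *Nog* within a group was about that of counting error, so little variation beyond it was there to relate to a score.

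Between antagonists, 0 of 21 pairs passed an adjusted p under 0.05. The coefficient of variation of *Chrd* was 5.46% in controls, about that of counting error (5.79%), and 10.2% in mutants. *Chrd* and *Bmper* gave the highest correlation (r = 0.81, exact permutation p = 0.01, adjusted p = 0.21; rho = 0.83, exact p = 0.0125; r = 0.68 without the 2 farthest libraries). *Grem1* and *Sostdc1*, from the same structural group, followed (r = 0.77, exact permutation p = 0.0236, adjusted p = 0.248; rho = 0.67, exact p = 0.0442; r = 0.80 without the 2 farthest libraries).

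The genes whose pattern among embryos was most like each antagonist are given as a description, from 11014 genes (11015 for *Grem1*) with a mean of at least 5 CPM and over 10 libraries that share depth and tissue admixture. For *Chrd* these were *Mpdz* (r = 0.98), *Dpep1* (0.95) and the BMP-binding *Fstl1* (0.94), and for *Bmper* they were *Fnbp1* (0.95), the laminin gene *Lama2* (0.93) and the WNT modulator *Sfrp2* (0.91). For *Chrdl1* they were *Prps1l3* (0.95), *Glud1* (0.93) and the proliferation marker *Mki67* (0.92), and for *Twsg1* they were *Ctbs* (0.95), *Sp1* (0.95) and *Bptf* (0.94). For *Grem1* they were *Zfp385b* (0.93), the calcium channel subunit gene *Cacna2d2* (0.90) and the sarcomere gene *Myom1* (0.90), in the same libraries in which muscle markers were high. For *Sostdc1* they were *Bcl11b* (0.92), *Thop1* (0.90) and *Ppat* (0.89). For *Nog* they were *Rce1* (0.96), *Hdac3* (0.95) and the tendon gene *Tnmd* (0.91), but the spread of *Nog* within a group was about that of counting error.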

How the data were processed

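RNA of excised AF tissue was made into stranded libraries and sequenced as single reads. The authors deposited 1 table of estimated counts per gene, not scaled between libraries; 66.4% of the values were whole and the lowest sum of a gene was 10. The submitters' processing notes name Partek and mm10; the aligner, the counting method and its use of strand are not given in the sources used here. All columns were matched to samples by library name. Counts were rounded and fitted with edgeR 4.0.16 (R 4.3.3; TMM, filterByExpr, quasi-likelihood test, Benjamini-Hochberg adjustment over 16267 genes), with 5 libraries per group and no covariate; the study states no test. CPM values are scaled by TMM factors and log2 CPM values have a prior count of 0.5. Numbers of counts limit precision. They are given per library for *Nog* and *Grem1*, and counting error is given for these and for *Chrdl1*. At the mean counts of *Chrd*, *Bmper*, *Twsg1* and *Sostdc1*, counting error was 5.79%, 5.48%, 2.05% and 6.79%. The paper describes controls as littermates of the mutants, in pairs, but neither it nor the labels say which libraries share a litter, so no litter term was used and p-values measure the spread between these samples.

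The members and lists were chosen with earlier results of these data known. All 7 antagonists were named, and from the pathway lists genes past the adjusted threshold, genes at an unadjusted p under 0.05 without overlap, and the 2 most abundant of each list. By edgeR, no pathway gene met the first parts of this rule. The 11 at an unadjusted p under 0.05, and *Bmp4*, were named after their values were seen. For each antagonist the 3 genes most alike in pattern were named. Positions and lengths came from GENCODE M21 (GRCm38). Correlations used exact permutation within groups (14400 orders; scipy 1.17.1, numpy 2.4.6). Only the edgeR fit was tested on simulated data, with changes larger than those of the antagonists. Alternatives were DESeq2 1.42.0, limma voom 3.58.1, other scalings and filters, an *Xist* covariate, a replicate block, a table without ribosomal RNA genes, and leaving out each library.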

Additional observations from a re-analysis of the deposited data

Results flagged for a closer look

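Among 33 genes, *Fgfr2* and genes of the BMP pathway, looked at in 66 groups of 5 libraries, 2 groups held a library far from the others. Chance alone gives about 1 in 20 such groups for genes that were not selected. Of these genes, 11 were picked for an unadjusted p under 0.05. *Smad9*, a signal transducer of the BMP branch, was highest in control replicate 2 at 16.8 CPM, with the next control at 15.2 CPM. *Hey1*, a BMP target, was highest in mutant replicate 1 at 22.8 CPM, with the next mutant at 20.3 CPM. Neither was one of the 7 antagonists. These libraries were the ones highest in skeletal muscle markers, whose part in the values was not tested.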

How the results depend on the processing

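The log2 fold changes of the 7 antagonists kept their sign in all 20 alternatives and moved by less than the spread between replicates. Leaving out 1 library gave -0.37 to -0.33 for *Nog*, 0.0078 to 0.71 for *Grem1*, 0.22 to 0.31 for *Chrd*, -0.40 to -0.22 for *Chrdl1*, -0.085 to -0.0096 for *Twsg1*, 0.0071 to 0.16 for *Sostdc1* and -0.32 to -0.19 for *Bmper*. The number of genes called by edgeR, 3, was 1 with library size only, 1 with the *Xist* covariate and 97 with DESeq2 (58 higher, 39 lower), and 1 to 6 with 1 library left out; the cause was not tested. Pathway genes at an unadjusted p under 0.05, 11 in the main comparison, numbered 4 to 15 with 1 library left out. Tissue relations at an adjusted p under 0.05, 0 in the main comparison, numbered 0 to 1, with *Grem1* and the tendon score passing without mutant replicate 2 (r = 0.86) and without mutant replicate 3 (r = 0.91; exact permutation adjusted p = 0.0194 each). The order of *Nog* over *Chrdl1* was reversed with the longest transcript as length, at -0.33. Without both libraries highest in muscle markers, an alternative chosen after seeing the data, *Nog* was at -0.36.

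With the replicate number as a block, 1 gene was called and *Nog* was at -0.36 (SE 0.061). Same-numbered libraries correlated between -0.21 and 0.14 and none matched its own number best, so the numbers were not taken as pairs, although the paper describes littermate pairs. Depth limited *Grem1* most, at 35 counts in its lowest library.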
